A study of Mus musculus with 12 samples.

Results

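The 10 genes described here encode 4 families of RNA-binding proteins that control splicing and RNA stability in neurons: Nova1 and Nova2, Rbfox1, Rbfox2 and Rbfox3, Ptbp1 and Ptbp2, and the neuronal ELAV-like genes Elavl2, Elavl3 and Elavl4. They were taken as every row whose array annotation gave exactly 1 gene symbol that was one of these names. This gave 12 rows of all 10 genes among 24343 gene-level rows with 1 symbol, which stand for 20178 genes, and 177 exon-level probesets of 9 of the genes among 319246 probesets with 1 symbol. Rbfox1 and Rbfox2 probesets carried older symbols (A2bp1 on 31 and Rbm9 on 26 probesets), which were updated through the synonyms of the RefSeq gene table, and no probeset was named for Rbfox3.

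Spinal motor neurons (SMNs) were compared with the posterior horn of the spinal cord in adult C57Bl/6 mice (C57BL/6J males in the methods), and the labels name no transgene or treatment in either group. According to the methods, the mice were 6 weeks old, about 3000 SMNs with a diameter above 20 μm were laser-dissected from the anterior horn of 3 mice in 10 μm sections, and about 20 dorsal horn areas, which are pieces of tissue with neurons and glia, were cut from 3 mice. The labels call the groups anterior horn cells and posterior column. RNA was amplified linearly and hybridized to Affymetrix Mouse Exon 1.0 ST Arrays, 3 per group, whose probesets lie along the exons of each gene. The sources do not say whether an array stands for 1 mouse, and p-values therefore reflect how far these arrays spread, which may be technical.

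Regulators of these families act by binding short sequence elements in precursor and messenger RNAs. NOVA proteins bind YCAY clusters and shape the splicing of synaptic transcripts, RBFOX proteins bind the GCAUG element beside alternative exons, and RBFOX3 is the NeuN antigen used to stain neurons. PTBP1 represses neuronal exons in progenitors, glia and other cells, and its paralog PTBP2 takes its place as neurons differentiate. The neuronal ELAV-like proteins (HuB, HuC and HuD, from Elavl2, Elavl3 and Elavl4) bind AU-rich and U-rich elements and stabilize or alternatively splice neuronal transcripts.

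The RefSeq promoter table of GRCm38.p6 held 9 of the 10 genes and 4 of the 5 that differed between the groups at the gene level, with windows from 250 bases before to 50 after a transcription start. The 4 windows are printed as the sequence context of the genes that differed. Capitals mark matches to the GC box GGGCGG, the E box CANNTG and the homeodomain core TAAT, searched on both strands, and no match overlapped another in these 4 windows. The windows are Elavl2 at chr4:91399935-91400234 on the minus strand, Elavl4 at chr4:110351862-110352161 on the minus strand, Nova2 at chr7:18925638-18925937 on the plus strand and Rbfox1 at chr16:5884543-5884842 on the plus strand, each written in the direction of transcription. The table held 6 starts for Elavl2, 4 for Elavl4, 2 for Rbfox1 and 1 for Nova2. Only the start farthest upstream of each gene is printed, and the other starts were not searched for motifs.
Elavl2: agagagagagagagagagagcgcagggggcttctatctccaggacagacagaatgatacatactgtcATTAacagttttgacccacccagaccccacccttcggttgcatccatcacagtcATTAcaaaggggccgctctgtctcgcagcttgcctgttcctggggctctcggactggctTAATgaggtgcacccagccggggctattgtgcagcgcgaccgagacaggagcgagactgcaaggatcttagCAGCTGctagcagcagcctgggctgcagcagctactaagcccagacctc
Elavl4: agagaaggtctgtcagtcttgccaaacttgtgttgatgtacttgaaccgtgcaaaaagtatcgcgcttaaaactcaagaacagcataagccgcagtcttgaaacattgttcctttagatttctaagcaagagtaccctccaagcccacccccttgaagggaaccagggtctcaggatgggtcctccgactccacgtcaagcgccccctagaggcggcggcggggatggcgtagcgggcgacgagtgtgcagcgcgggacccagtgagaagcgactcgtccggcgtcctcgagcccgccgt
Nova2: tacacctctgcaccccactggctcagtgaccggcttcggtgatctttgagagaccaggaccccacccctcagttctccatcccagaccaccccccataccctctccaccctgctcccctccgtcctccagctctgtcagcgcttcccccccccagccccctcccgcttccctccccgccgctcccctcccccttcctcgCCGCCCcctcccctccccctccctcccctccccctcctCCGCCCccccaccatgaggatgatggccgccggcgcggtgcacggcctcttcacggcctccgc
Rbfox1: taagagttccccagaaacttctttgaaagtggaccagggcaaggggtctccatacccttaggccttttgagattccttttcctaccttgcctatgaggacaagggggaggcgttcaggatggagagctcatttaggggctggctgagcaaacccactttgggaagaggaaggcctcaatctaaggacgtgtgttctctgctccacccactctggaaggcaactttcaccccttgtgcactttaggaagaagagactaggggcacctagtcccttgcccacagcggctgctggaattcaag

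The Elavl2 window held 1 E box and 3 TAAT cores, the Nova2 window held 2 GC boxes, and the Elavl4 and Rbfox1 windows held none of the 3 motifs. Of 27025 promoter windows of the same length, 35.9% held the GC box, 72.1% the E box and 58.4% the TAAT core. CG dinucleotides numbered 10 in the Elavl2 window, 23 in Elavl4, 17 in Nova2 and 3 in Rbfox1, against a median of 7 over all windows. Elavl2 and Elavl4, which both rose in SMNs, shared none of the 3 motifs in these windows.

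At the gene level, Elavl2 and Elavl4 rose about 2-fold in SMNs, Nova2 rose by less, Rbfox1 and Rbfox2 fell, and Nova1, Rbfox3, Ptbp1, Ptbp2 and Elavl3 did not pass the test. Differences were tested with limma on log2(intensity + 1), and adjusted over all 24343 rows at a threshold of 0.05. Over these rows 13.8% were higher and 12.6% lower in SMNs, against which 3 of the 10 regulators were higher and 2 lower. The arrays of the groups did not overlap for 8 of the 10 regulators, against 45.6% of all rows. The regulators' rows lay between the 56.8 and 95.8 percentiles of mean intensity. The shares over all rows also include dimmer rows, so they are not matched for intensity. An exact two-sided permutation test of 3 arrays against 3 gave 0.2 for Rbfox3 and 0.8 for Ptbp2. For the 8 regulators without overlap it gave its smallest possible p of 0.1. That value follows from the lack of overlap and is no further evidence. Intensities of different genes depend on their probes, so levels are compared between groups and not between genes. In tissue of mixed cells, fewer cells of a type and less RNA per cell cannot be told apart.

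**Figure D1:**
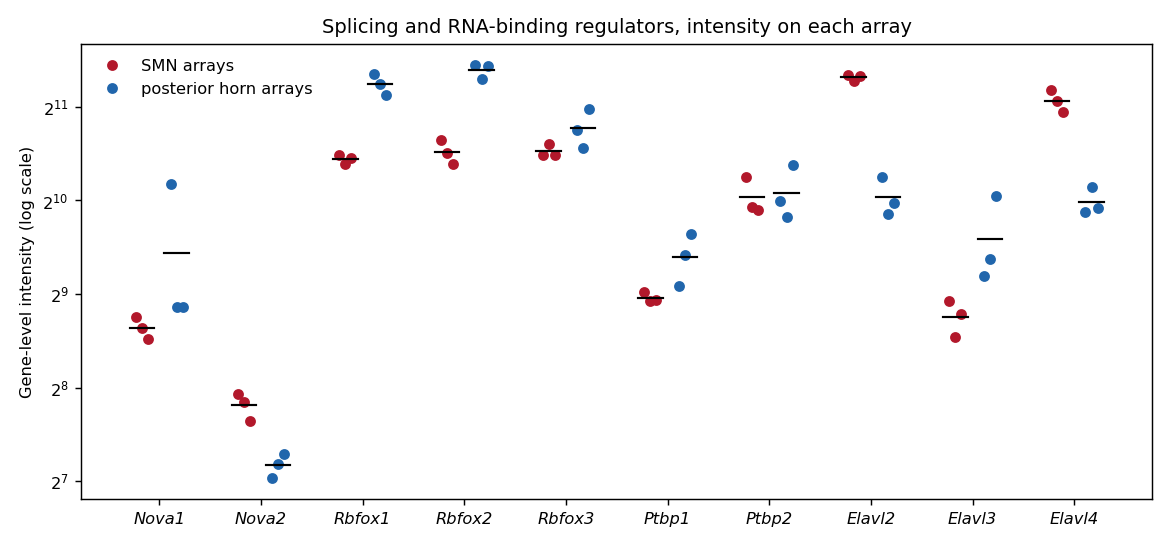
Gene-level intensity (log axis) of each regulator on the 3 SMN arrays (red) and the 3 posterior horn arrays (blue), with black bars at the group means. Elavl2, Elavl4 and Nova2 lie higher on all 3 SMN arrays, and Rbfox1 and Rbfox2 lower. Nova1, Ptbp1 and Elavl3 also lie lower on all 3 SMN arrays but did not pass. The posterior horn values of Nova1 are spread between 464.4 and 1158.

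The ELAV-like family held the largest rises. Elavl2, encoding HuB, had intensities of 2588, 2487 and 2572 on the SMN arrays and 1216, 923.9 and 1006 on the posterior horn arrays. Every SMN array lay above every posterior horn array, and the log2 fold change of SMN minus posterior horn was 1.29 (SE 0.16, 95% interval 0.90 to 1.68, adjusted p = 0.00419), a 2.45-fold rise. Elavl4, encoding HuD, had intensities of 2315, 2131 and 1966 on the SMN arrays and 939.5, 1131 and 971.3 on the posterior horn arrays. These groups were also separate, with a log2 fold change of 1.08 (SE 0.16, 95% interval 0.70 to 1.46, adjusted p = 0.00631), a 2.11-fold rise. Elavl3, encoding HuC, lay the other way, at 486.7, 372.8 and 441.5 on the SMN arrays and 586.1, 665.3 and 1059 on the posterior horn arrays. All SMN values of Elavl3 were below the posterior horn values, the third of which stood well above the other 2. Its log2 fold change of -0.79 (SE 0.26, 95% interval -1.42 to -0.15) did not pass after adjustment (adjusted p = 0.0718). It passed where the dimmest 25% of rows were left out (adjusted p = 0.0434) and with a variance trend and robust estimation (0.0262), while a fit of the exon-level median, that is, of the median over the gene's probesets on each array, gave a log2 fold change of -0.14 (adjusted p = 0.779).

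The RBFOX family held both falls. Rbfox1 had intensities of 1431, 1343 and 1407 on the SMN arrays and 2604, 2433 and 2243 on the posterior horn arrays. Its groups were separate, and its log2 fold change was -0.80 (SE 0.14, 95% interval -1.14 to -0.45, adjusted p = 0.0115), 1.74-fold lower in SMNs. Rbfox2, a paralog that is also used outside the nervous system, had intensities of 1598, 1455 and 1345 on the SMN arrays and 2799, 2518 and 2779 on the posterior horn arrays. This was a log2 fold change of -0.88 (SE 0.15, 95% interval -1.24 to -0.52, adjusted p = 0.00975), 1.84-fold lower in SMNs, with no overlap of the arrays. Rbfox3 had intensities of 1433, 1552 and 1434 on the SMN arrays and 1725, 1514 and 2015 on the posterior horn arrays. The Rbfox3 groups overlapped, and its log2 fold change of -0.24 (SE 0.17, 95% interval -0.64 to 0.16) did not pass (adjusted p = 0.328). The Rbfox1 call was lost without SMN replicate 2 (adjusted p = 0.0526). With the exon-level median on each array in place of the gene-level row, Rbfox1 (log2 fold change -0.52, adjusted p = 0.125) and Rbfox2 (-0.50, adjusted p = 0.0636) kept their direction and missed the threshold. A second Rbfox1 row was near the floor, at 12.95, 24.79 and 20.83 on the SMN arrays and 0.007525, 23.12 and 17.74 on the posterior horn arrays, and was not called (adjusted p = 0.442).

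The NOVA paralogs lay on opposite sides of 0. Nova2 had intensities of 243.5, 230.4 and 200.2 on the SMN arrays and 131, 145.4 and 156.7 on the posterior horn arrays. All 3 SMN arrays lay above the posterior horn arrays, with a log2 fold change of 0.63 (SE 0.16, 95% interval 0.25 to 1.02, adjusted p = 0.0326), a 1.55-fold rise. That call was lost without any 1 of the SMN arrays or without posterior horn replicate 1 or 2, where the adjusted p lay between 0.0626 and 0.109. It was also lost with the exon-level median (log2 fold change 0.44, adjusted p = 0.0671). Nova1 had intensities of 430.6, 398.6 and 367.4 on the SMN arrays and 1158, 465.6 and 464.4 on the posterior horn arrays. The SMN values were all lower, but posterior horn replicate 1 lay far above the other 2, and the log2 fold change of -0.66 (SE 0.38, 95% interval -1.58 to 0.26) did not pass (adjusted p = 0.244). Without that array it was -0.22 (adjusted p = 0.336). At the exon level posterior horn replicate 1 did not stand apart for Nova1, whose median over 8 probesets was 9.11, 9.57 and 9.47 on the log2 scale on the SMN arrays and 9.53, 9.51 and 9.44 on the posterior horn arrays.

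The polypyrimidine tract binding proteins did not pass. Ptbp1 had intensities of 518.4, 485.4 and 491.7 on the SMN arrays and 542, 682.3 and 797.4 on the posterior horn arrays. The SMN values were below all posterior horn values, which were spread more widely, and the log2 fold change was -0.42 (SE 0.19, 95% interval -0.87 to 0.03, adjusted p = 0.149). A second Ptbp1 row, at 96.8, 127.8 and 120.6 on the SMN arrays and 81.0, 108.8 and 129.2 on the posterior horn arrays, overlapped between the groups (adjusted p = 0.711). Ptbp2 had intensities of 1214, 976.8 and 952.4 on the SMN arrays and 1018, 907.1 and 1333 on the posterior horn arrays. Its groups overlapped, and the log2 fold change was -0.04 (SE 0.21, adjusted p = 0.902), with an interval of -0.54 to 0.46 that leaves room for a change of either sign.

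**Figure D2:**
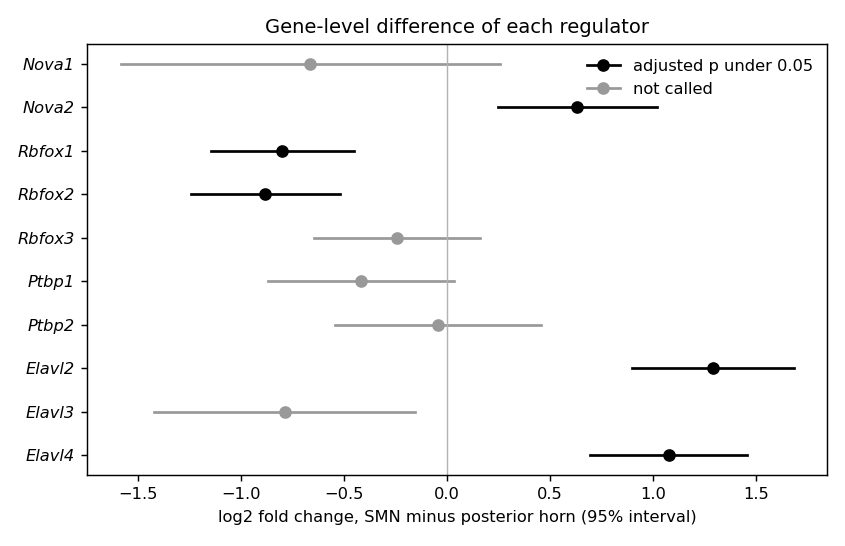
Gene-level log2 fold change of SMN minus posterior horn for each regulator (points) with its 95% interval (bars), in black where the adjusted p was under 0.05. The intervals of Elavl2 (0.90 to 1.68), Elavl4 (0.70 to 1.46) and Nova2 (0.25 to 1.02) lie above 0. Those of Rbfox1, Rbfox2 and Elavl3 (-1.42 to -0.15) lie below it, although Elavl3 did not pass after adjustment.

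Whether paralogs differed from each other was tested on the difference of their log2 values on the same array, for 8 pairs within families, against which all 24342 other rows were fitted in the same way. Elavl2 rose relative to Elavl3 by 2.08 on the log2 scale (SE 0.39, adjusted p = 0.00342), a 4.22-fold gap, where 37.1% of all rows differed from Elavl3. Its log2 value exceeded that of Elavl3 by 2.41, 2.73 and 2.54 on the SMN arrays, against 1.05, 0.47 and -0.07 on the posterior horn arrays, so that the gap was wider on every SMN array. Elavl3 fell relative to Elavl4 by 1.86 (SE 0.29, adjusted p = 0.00167), where 64.9% of all rows differed from Elavl4. With the exon-level medians that difference was -1.03 (adjusted p = 0.00766). The difference of Elavl2 and Elavl4 was 0.21 and did not pass (interval -0.34 to 0.76, adjusted p = 0.434), but with the exon-level medians it was 0.60 and passed (adjusted p = 0.0442).

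Nova1 fell relative to Nova2, with a difference of log2 fold changes of -1.296 (SE 0.42, adjusted p = 0.0457), where 37.2% of all rows differed from Nova2. Leaving out SMN replicate 1, 2 or 3 gave differences of -1.29, -1.28 and -1.32 that missed the threshold (adjusted p = 0.113, 0.103 and 0.0940), and without posterior horn replicate 1 the difference was -0.79 (adjusted p = 0.0295). With the exon-level medians it was -0.55 (adjusted p = 0.0477). The log2 fold changes of Rbfox1 and Rbfox2 differed by 0.08 (interval -0.34 to 0.51, adjusted p = 0.698), where 55.6% of all rows differed from Rbfox2. Relative to Rbfox3, the difference was -0.56 for Rbfox1 (interval -1.09 to -0.03, adjusted p = 0.116) and -0.64 for Rbfox2 (interval -1.12 to -0.16, adjusted p = 0.0598), neither of which passed, where 23.6% of all rows differed from Rbfox3. The difference of Rbfox1 and Rbfox3 passed without posterior horn replicate 3 (-0.72, adjusted p = 0.0498), and that of Rbfox2 and Rbfox3 passed with 16 added before the log2 (adjusted p = 0.0434). The difference of Ptbp1 and Ptbp2 was -0.38 (interval -1.002 to 0.25, adjusted p = 0.399), where 11.4% of all rows differed from Ptbp2, and -0.01 with the exon-level medians (adjusted p = 0.980). In all, 3 of 8 pairs passed.

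The exon-level values, on a log2 scale, gave several measurements of each regulator. Of the 177 probesets 8 were called, all of them Elavl2 probesets that were higher in SMNs, where 1.44% of all named probesets were called higher and 1.48% lower. That only Elavl2 was called depended on the setting, and other settings, given below, also called probesets of Elavl4, Rbfox1 and Rbfox2. At an unadjusted p under 0.05, 12.3% of all named probesets were higher and 9.73% lower. The 17 Elavl2 probesets had log2 fold changes of -1.11 to 3.49 with a median of 1.24 over the probesets, and 15 lay above 0. The 9 Elavl2 probesets that were not called ranged up to 1.26. Elavl4 had 16 of 17 probesets above 0, with a median of 1.03, and 14 of them had an unadjusted p under 0.05, but none passed after adjustment (smallest adjusted p = 0.0633). Rbfox1 had 24 of 31 probesets below 0 (median -0.63, 18 lower at an unadjusted p under 0.05) and Rbfox2 had 23 of 26 below 0 (median -0.48, 11 lower at that limit). Ptbp1 also had 26 of 29 probesets below 0 with a median of -0.49, and 7 were lower at that limit. Nova2 had 13 of 17 above 0 with a median of 0.25. The log2 fold changes of the Nova1, Elavl3 and Ptbp2 probesets were centred near 0, with medians of -0.14 over 8, -0.18 over 10 and 0.07 over 22 probesets. These medians are taken over log2 fold changes, and the fit of the exon-level median on each array is another quantity, which was -0.11 for Nova1, -0.14 for Elavl3 and -0.33 for Ptbp2 (adjusted p = 0.321).

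**Figure D3:**
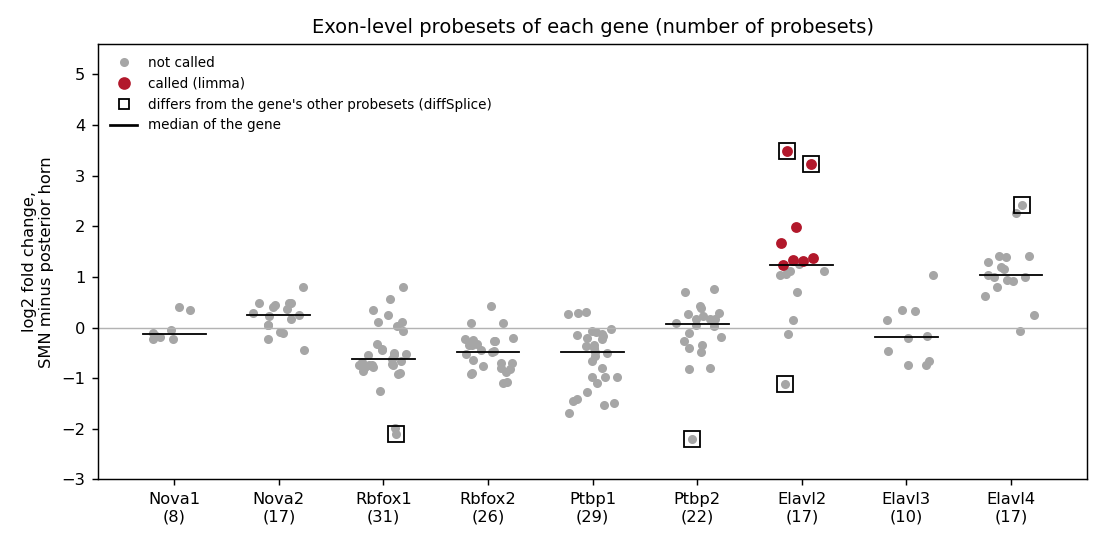
Exon-level log2 fold change of SMN minus posterior horn for each probeset of 9 regulators (points), with the median of each gene (bars). Called probesets are red and occur only in Elavl2 (8 of 17), and squares mark the 6 probesets that differed from the other probesets of their gene.

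The difference between groups varied along Elavl2 and Ptbp2. By the F test of limma's diffSplice, which asks whether the probesets of a gene changed by unequal amounts, Elavl2 (adjusted p = 3.24e-05) and Ptbp2 (0.00153) passed. These were 2 of the 9 regulators with probesets, which is close to the share of 21.6% over 21265 genes. Elavl4 (0.0560) and Rbfox1 (0.0781) missed the threshold, and the other 5 regulators had adjusted p of 0.354 and above. The test does not tell a change of isoform from probesets that respond weakly, and the positions of the probesets were not given in the sources used here. Ptbp2 lost its call without SMN replicate 1 (adjusted p = 0.164) and without posterior horn replicate 2 (0.102). Elavl4 passed without posterior horn replicate 1 (3.70e-06), and Rbfox1 passed without that array (0.00254) and without SMN replicate 1 (0.0250).

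Of single probesets, 3.51% of all those tested departed from the rest of their gene. Of the regulators' 177 probesets 6 did, which is close to that share. The Elavl2 probeset 5378037 had log2 values of 9.49, 9.38 and 9.57 on the SMN arrays and 6.02, 5.72 and 6.24 on the posterior horn arrays. This was the widest difference of any regulator probeset, a log2 fold change of 3.49 (11.2-fold, adjusted p = 0.00267), which exceeded that of the other Elavl2 probesets by 2.41 (adjusted p = 0.00112). The Elavl2 probeset 4985477 had 6.14, 6.94 and 6.28 on the SMN arrays and 4.30, 2.35 and 3.06 on the posterior horn arrays, 2.12 above the other probesets (adjusted p = 0.00551). Its posterior horn values lay below the median of all probesets, which was about 4.5 on every array. The Elavl2 probeset 4548967 had 2.51, 2.63 and 2.04 on the SMN arrays and 1.85, 3.30 and 5.37 on the posterior horn arrays, and its difference relative to the other probesets was -2.48 (adjusted p = 0.000727). It was dim in both groups, and its groups overlapped.

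The Ptbp2 probeset 4403609 had log2 values of 5.10, 5.83 and 5.56 on the SMN arrays and 8.23, 8.30 and 6.56 on the posterior horn arrays. Every SMN array lay below every posterior horn array, and the difference relative to the other Ptbp2 probesets was -2.21 (adjusted p = 1.17e-05), while its own log2 fold change of -2.20 did not pass over all probesets (adjusted p = 0.106). The Rbfox1 probeset 4851792 had 2.39, 2.76 and 4.12 on the SMN arrays and 4.397, 5.17 and 6.03 on the posterior horn arrays, a difference of -1.64 relative to the other Rbfox1 probesets (adjusted p = 0.0319). Its values on the SMN arrays and on posterior horn replicate 1 lay below the median of all probesets of about 4.5. The Elavl4 probeset 5579519 had 6.89, 6.47 and 7.07 on the SMN arrays and 6.70, 3.53 and 2.97 on the posterior horn arrays, so that its groups overlapped, and exceeded the other Elavl4 probesets by 1.38 (adjusted p = 0.0480). Its values on posterior horn replicates 2 and 3 lay below that median. Neither Rbfox1 nor Elavl4 passed the F test (adjusted p = 0.0781 and 0.0560).

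**Figure D4:**
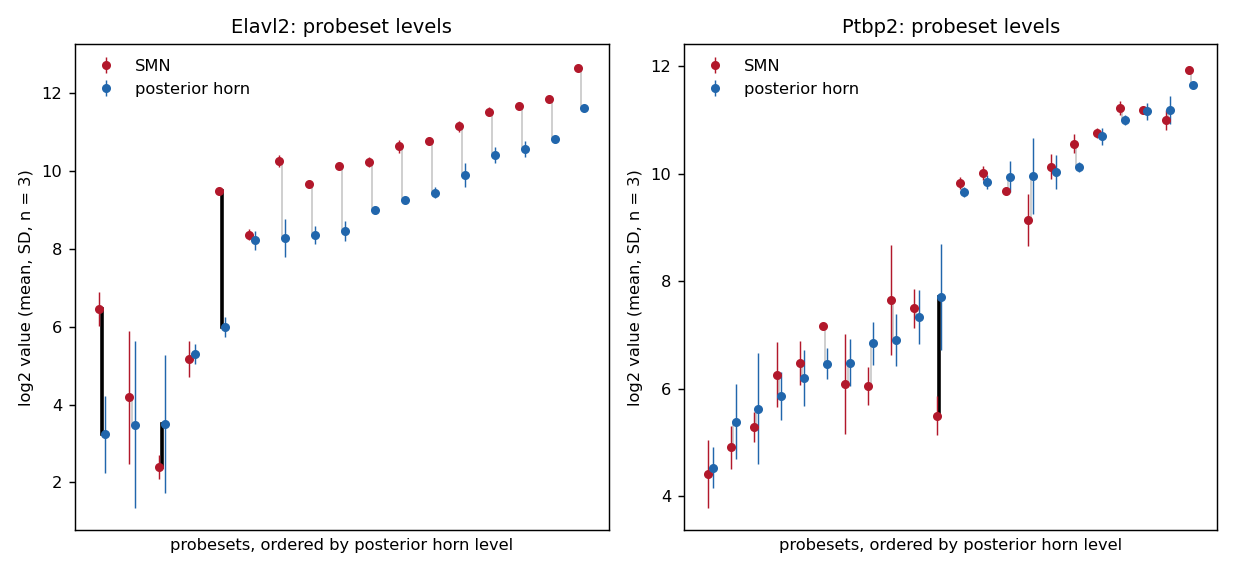
Exon-level log2 values (mean and SD, n = 3 arrays per group) of the 17 Elavl2 and 22 Ptbp2 probesets, ordered by their posterior horn level, with thick lines where a probeset departed from the rest of its gene. In Elavl2, 2 probesets differ by more than 3 on the log2 scale while most others differ by about 1, and in Ptbp2 a single probeset has a log2 fold change of -2.20 while the others scatter around 0.

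Other splicing factors gave the regulators their setting. Over all rows 13.8% were called higher and 12.6% lower in SMNs, and no share was taken for rows of like intensity. Of the CELF and muscleblind genes, which regulate alternative exons and poly(A) sites, 1 of 9 was higher and 5 lower in SMNs, with a median log2 fold change of -1.14, against 0.02 over all rows. Celf2 had the widest fall of them, with intensities of 49.2, 53.5 and 300.6 on the SMN arrays and 3136, 2811 and 2880 on the posterior horn arrays (log2 fold change -4.97, adjusted p = 0.00549). All SMN values of Celf2 were far below the posterior horn values, and SMN replicate 3 stood above the other 2. Celf4 fell by 1.72 on the log2 scale (adjusted p = 0.00159), and Mbnl3 rose by 0.84 (adjusted p = 0.0303). Of the STAR family, KH-domain splicing factors, 2 of 5 fell and none rose. These were Khdrbs2, whose product SLM1 is a neuronal splicing factor (-2.34, adjusted p = 0.0172), and Qk, encoding the Quaking protein of glia (-1.03, adjusted p = 0.00517).

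The general splicing factors were also more often lower in SMNs than higher, where 13.8% of all rows were higher and 12.6% lower. Of 15 measured SR and SR-related genes of 17, 8 fell and none rose, with a median of -0.60, led by Srrm1 (-1.99, adjusted p = 0.0146) and Srsf5 (-1.58, adjusted p = 0.00806). Of 22 hnRNP genes of 25, which package nuclear RNA, 6 fell and 1 rose, with a median of -0.44. Pcbp3, a poly(C)-binding protein, rose by 1.37 (adjusted p = 0.00433), and Hnrnpa2b1 (-1.21, adjusted p = 0.00999) and Hnrnpul1 (-1.04, adjusted p = 0.00455) fell.

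Relatives of the 10 regulators included 13 measured genes of 14, of which 1 rose and 4 fell (median -0.41). The shares over all rows were 13.8% higher and 12.6% lower. Raver2, a partner of the PTB proteins, had intensities of 375.5, 365 and 393.6 on the SMN arrays and 144, 168.8 and 93.09 on the posterior horn arrays, a log2 fold change of 1.52 (adjusted p = 0.00851). Ptbp3, the third PTB paralog, fell by 1.64 (adjusted p = 0.0216) and Rbm20, a splicing repressor of heart titin, by 1.08 (adjusted p = 0.00487). Of 19 genes of 22 for RNA transport and translation, 3 rose and 5 fell, and the median was 0.34. Cpeb1, which controls cytoplasmic polyadenylation, had 2443, 2502 and 2505 on the SMN arrays and 926.2, 522 and 761.1 on the posterior horn arrays, a rise of 1.79 (adjusted p = 0.00476). Fxr2, a relative of the fragile X protein, rose by 0.95 (adjusted p = 0.0170), and the translational repressor gene Pum2 (-1.65, adjusted p = 0.00287) and Igf2bp3 (-1.61, adjusted p = 0.00151) fell.

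**Figure D5:**
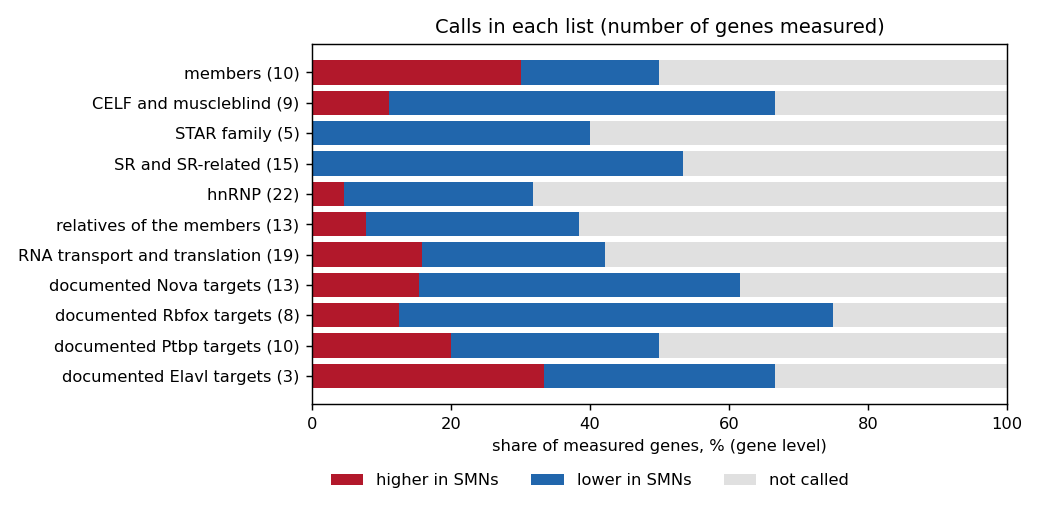
Share of the measured genes of each list (number in brackets) that were higher in SMNs (red), lower (blue) or not called (grey) at the gene level. The 10 regulators split into 3 higher and 2 lower, while the STAR and SR lists held falls and no rise. Over all rows 13.8% were higher and 12.6% lower.

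Transcripts documented as targets of the 4 families were read at both levels. At the gene level, 2 of 13 measured Nova targets rose and 6 fell, where 13.8% of all rows were higher and 12.6% lower. Clasp1, a microtubule plus-end protein gene, rose by 1.18 (adjusted p = 0.00326) and Dab1, the reelin adaptor whose exons NOVA2 regulates, by 0.86 (adjusted p = 0.0166), while Glra2, a glycine receptor subunit gene, fell by 2.09 (adjusted p = 0.00876) and Kcnj6, a potassium channel gene, by 2.02 (adjusted p = 0.000959). Of 8 Rbfox targets, 1 rose (Snap25, 0.49, adjusted p = 0.0455) and 5 fell, among them the calcium channel gene Cacna1c (-0.98, adjusted p = 0.0144). The falls include Rbfox1 and Rbfox2 themselves, and without them 1 of 6 rose and 3 fell. Of 10 Ptbp targets, Pkm (0.89, adjusted p = 0.0361) and Clta (0.57, adjusted p = 0.0262) rose and 3 fell, led by Shtn1 (-1.59, adjusted p = 0.00140). Of 3 measured Elavl targets, Elavl4 rose, and of the 2 that are not themselves regulators none rose and 1 fell, Gap43, a growth cone protein gene whose RNA HuD stabilizes. Without the regulators, the Nova targets still held 2 rises and 6 falls of 12 and the Ptbp targets 2 rises and 3 falls of 8. Gap43 had 796.8, 843.6 and 778 on the SMN arrays and 3247, 3551 and 3423 on the posterior horn arrays, a log2 fold change of -2.08 (adjusted p = 0.000742).

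At the exon level, diffSplice passed 8 of 13 Nova targets, 3 of 9 Rbfox targets, 7 of 11 Ptbp targets and 2 of 4 Elavl targets. Counted once each, 18 of 35 targets passed (51.4%), and 17 of 29 (58.6%) without the regulators themselves, against 21.6% of all genes. The targets had more probesets than most genes, with a median of 26 against 12, and of 3248 genes with at least 26 probesets 40.3% passed. Snap25, whose alternative exon pair lies in a SNARE protein, had the smallest adjusted p (6.35e-18 over 19 probesets), followed by the ankyrin gene Ank3 (3.93e-12), Calca (5.03e-09), Dlg4 (5.65e-09), Clasp1 (1.07e-08) and Tpm1 (2.90e-06), which were singled out after their values were seen. Calca has calcitonin and CGRP isoforms, and Dlg4, encoding PSD-95, carries an exon that PTBP1 and PTBP2 repress. No target was related to a regulator in these 6 arrays by any test.

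Markers of cell types were read on the same arrays. The SMN markers were at sums of 16900 to 17800 on the SMN arrays and 374.7 to 482.2 on the posterior horn arrays, with 5 of 6 higher in SMNs, including Chat, Slc18a3, Slc5a7, Prph and Isl1, while Mnx1 (mean 161.3 in SMNs, 229.2 in the posterior horn) did not pass. Of 11 general neuron markers, 7 were higher and 2 lower in SMNs. Their sums were 53520 to 55370 on the SMN arrays and 30790 to 32270 on the posterior horn arrays. The neurofilament genes Nefm, Nefh and Nefl had the largest SMN means of this list, at 11260, 10590 and 7708. The 2 lower ones were Syt1 (mean 246.1 in SMNs, 3506 in the posterior horn) and Map2 (1174 and 3005). Oligodendrocyte markers (8 of 8 lower), microglia markers (6 of 7 lower), endothelial markers (5 of 6 lower) and astrocyte markers (6 of 7 lower, S100b higher) were lower in SMNs. Their sums were 11200 to 12110, 1614 to 1672, 636.6 to 764.3 and 8292 to 8587 on the SMN arrays. On the posterior horn arrays they were 22330 to 23630, 4103 to 4394, 2096 to 2797 and 15180 to 16040. The median intensity of named rows was 134.9 to 139.8 on the SMN arrays. All oligodendrocyte markers had SMN means above it, but of the endothelial markers only Flt1 did (302.9), and microglia markers lay on both sides. S100b had the largest SMN mean of the astrocyte markers (2686). How far the sums on the SMN arrays reflect RNA of these cell types was not tested. Of 10 posterior horn neuron markers 7 were lower in SMNs, with sums of 6100 to 6953 on the SMN arrays and 21480 to 22610 on the posterior horn arrays. The part that these cell mixtures have in the values of the 10 regulators was not tested.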

How the data were processed

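The authors hybridized 6 arrays, 3 of SMNs and 3 of posterior horn, and their notes on processing list the tool Affymetrix Expression Console 1.3.1.187. The sources used here do not give the summarization of probes or the genome build. The deposited gene-level values are linear intensities, and the deposited exon-level values are on a log2 scale. Array medians were close (32.9 to 35.2 at the gene level, 4.49 to 4.52 at the exon level), and nothing was normalized again. Rows were named from platform annotation tables, with older symbols updated through the RefSeq gene table. For a gene with 2 rows the brighter stands for it. Precision is limited by the number of arrays.

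Log2(intensity + 1), a scale that understates changes of dim genes, and the exon-level values were fitted with limma 3.58.1 in R 4.3.3 (lmFit, eBayes, two-sided, Benjamini-Hochberg over all rows with 1 symbol, or over all 1195555 probesets). limma's diffSplice tested probesets within a gene. Folds are SMN over posterior horn. The procedure was run on simulated data with independent normal noise, which these arrays need not follow, so that run does not show its error rate here. Members and lists were chosen with earlier results of these data known. The text names all regulators, from each list the 2 largest rises and falls that passed, and for each regulator the probesets that departed most from the rest. The sources do not say whether replicate numbers pair arrays, and the main fits used no pairing. Alternatives were another normalization, a filter on dim rows, 16 added before the log2, a variance trend, the methods' t-test, Simes p-values, a replicate block, exon-level medians and leaving out each array. List genes with no row with 1 symbol were not analysed here, nor was the study's RNA sequencing.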

Additional observations from a re-analysis of the deposited data

How the results depend on the processing

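Elavl2 and Elavl4 kept their direction and their call in all 14 gene-level alternatives, with adjusted p-values of up to 0.0272 and 0.0353. Rbfox2 lost its call in 1 of 14, Rbfox1 in 2 and Nova2 in 7, and Elavl3 gained a call in 2. Nova1, Ptbp1 and Rbfox3 gained none, where Rbfox3, without probesets, had 13 alternatives. Of the 10 regulators, 5 were called, and 3 to 5 when 1 array was left out. With the exon-level median on each array, 2 of the 9 regulators with probesets were called. The log2 fold change of Ptbp2 was -0.16 to 0.12 when 1 array was left out, and that of Rbfox1 relative to Rbfox2 turned to -0.0154 with exon-level medians. Exon-level counts depended most on the processing. The 8 called probesets became 24 with the dimmest 50% of probesets left out and 49 with a variance trend and robust estimation, and 1 to 5 when 1 array was left out. Of the 24, 13 were of Elavl2, 7 of Elavl4, 2 of Rbfox2, 1 of Rbfox1 and 1 of Ptbp1. With the variance trend 15 were of Rbfox1, 13 of Elavl2, 9 of Elavl4 and 7 of Rbfox2, and the rest were of other regulators. Elavl2 kept 1 to 3 called probesets when 1 array was left out. Regulators with unequal probesets numbered 4 instead of 2 with the dimmest 50% left out, and 1 to 4 when 1 array was left out. With a replicate block, the called probesets were 1 and the called regulators 4 (Nova2 lost, adjusted p = 0.0924). Arrays of the same number correlated by -0.008 to 0.034 in their deviations. With 3 arrays per group, these values cannot settle whether the numbers pair the arrays. Of 8 paralog pairs 3 passed, and 2 to 4 did under the alternatives. The cause of these changes was not tested. Precision is limited by 3 arrays per group and by dim probesets.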

Other observations

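Gene-level and exon-level values of the same arrays can be set side by side for 9 of the regulators, of which Nova1 and Elavl3, chosen after their values were seen, are described here. For Nova1 the gene-level log2 fold change was -0.66, and the fit of the exon-level median on each array gave -0.11 (adjusted p = 0.703). The gene-level intensity of Nova1 on posterior horn replicate 1 was 1158, against 465.6 and 464.4 on the other 2 posterior horn arrays, whereas of its 8 probesets 3 were highest on that array and 3 on posterior horn replicate 2. For Elavl3 the gene-level log2 fold change was -0.79 and that fit gave -0.14 (adjusted p = 0.779), and 5 of its 10 probesets were highest on posterior horn replicate 3, where its gene-level intensity was 1059. Which probesets enter a gene-level row was not given in the sources used here.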
